A study of Homo sapiens with 8 samples.

Results

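The genes described here are 9 human genes of the myeloid lineage: CSF1R, its ligand gene CSF1, the cytokine receptor genes CSF2RB and CSF3R, the integrin gene ITGAM, the phagocyte oxidase genes NCF1 and CYBB, the transcription factor gene CEBPA and the lysozyme gene LYZ. They were chosen by gene symbol in the array annotation, out of 19775 genes with a probe set of their own, because the study concerned the expression of CSF1R in lymphoid cells. The array carried 18 probe sets assigned to 1 of these genes alone. A further probe set, 204961_s_at, was shared by NCF1 and its near-identical copies NCF1B and NCF1C and is given apart. RNA came from the established human cell line Reh, a B-cell precursor leukemia line. The series' design gives its origin as acute lymphoblastic leukemia, whereas the labels of the single samples name non-Hodgkin lymphoma. The 4 groups were Reh cells with both the CBFA2T3 shRNA and IKKβ(EE), a constitutively active form of IκB kinase β; cells with the CBFA2T3 shRNA; cells with IKKβ(EE); and cells with a control shRNA, whose titles call them mock. Each group had 2 arrays, labelled biological replicates 1 and 2. Knockdown and expression were transient, the labels give no share of transfected cells, and whether a control shRNA accompanied IKKβ(EE) in the cells without the CBFA2T3 shRNA is not stated. Such an array reads a whole culture, so a change in fewer cells and a smaller change in every cell cannot be told apart.

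CSF1R encodes the receptor tyrosine kinase through which CSF1 and interleukin 34 sustain monocytes and macrophages, and B-lineage cells normally keep the gene silent. PU.1, RUNX1 and C/EBP proteins are the textbook activators of its myeloid promoter. CBFA2T3 encodes a corepressor of the ETO family that is recruited to DNA by other factors, and IKKβ is the kinase that frees NF-κB from its inhibitors.

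The promoters of CSF1R and NCF1 are shown because the first belongs to the gene the study was about and the second to the member with the largest tested change. Both are the 250 bases before a RefSeq transcript start on GRCh38.p14. The CSF1R window lies on the minus strand at chr5:150086555-150086804, and the NCF1 window on the plus strand at chr7:74773761-74774010. Capitals mark GAGGAA, a core sequence bound by PU.1, in either orientation, and TGTGGT, a core sequence bound by RUNX factors.
CSF1R: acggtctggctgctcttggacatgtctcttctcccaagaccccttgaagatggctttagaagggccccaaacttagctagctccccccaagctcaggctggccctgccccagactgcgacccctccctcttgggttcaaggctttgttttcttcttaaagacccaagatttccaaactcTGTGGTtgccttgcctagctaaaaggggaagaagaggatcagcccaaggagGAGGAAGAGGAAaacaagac
NCF1: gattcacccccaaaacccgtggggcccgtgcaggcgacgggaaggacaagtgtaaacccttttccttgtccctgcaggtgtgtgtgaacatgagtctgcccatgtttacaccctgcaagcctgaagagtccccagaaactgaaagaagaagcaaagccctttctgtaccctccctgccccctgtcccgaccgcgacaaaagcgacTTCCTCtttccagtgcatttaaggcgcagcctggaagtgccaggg
The CSF1R window shown held 2 adjacent copies of GAGGAA, at bases 20 to 15 and 14 to 9 before the start, and 1 TGTGGT at bases 71 to 66. Another CSF1R window, at chr5:150113366-150113615, is not shown and held neither sequence. The NCF1 window held GAGGAA once, as its reverse complement, at bases 45 to 40. RefSeq windows were found for 6 of the 9 genes, 8 windows in all, and the genes without one were CSF1, CSF2RB and LYZ. GAGGAA occurred in 1 window each of CSF1R, CSF3R, CYBB, ITGAM and NCF1, that is in 5 of 8 windows, and in 23.6% of all 35116 windows of this length. TGTGGT occurred in 1 of the 8 windows, against 3855 of the 35116. The C/EBP pattern TTGCNNAA was found in 1 CSF3R window, against 9.05% of all windows. The NF-κB consensus was found in 0 of the 8, against 9.96%. Both strands were searched, none of the matches in CSF1R and NCF1 overlapped, and a match describes letters in a window, not a bound site.

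The labels were checked on the genes the constructs target. CBFA2T3 (208056_s_at) averaged 8.03 in cells with both, 8.26 with its shRNA alone, 8.90 with IKKβ(EE) and 9.26 in control cells, on the log2 scale of the arrays. By limma it was called lower than control in cells with both (adjusted p = 0.00938). With the shRNA alone the change of -0.999 was not called (adjusted p = 0.0518), unless the replicate number was a block (adjusted p = 0.0100). IKBKB (211027_s_at), the gene of IKKβ, averaged 11.71 in cells with both and 10.62 with IKKβ(EE), against 4.02 with the shRNA alone and 3.996 in control cells. The other IKBKB probe sets were above the floor in all groups and were not called with IKKβ(EE): 209341_s_at averaged 8.98 with IKKβ(EE), against 8.65 in control cells (adjusted p = 0.575), and 209342_s_at 7.13, against 6.87 (adjusted p = 0.676). Of 11 B-cell precursor markers on the array, 10 averaged at least log2 5, the level under which a probe set was treated as close to background. The summed linear level of the 11 was 30274 to 35765 in cells with both, 34487 to 36936 with the shRNA, 41134 to 41157 with IKKβ(EE) and 39929 to 42312 in control cells. Of 8 monocyte and granulocyte markers 0 averaged log2 5. The summed linear level of those 8 was 103.4 to 103.5 in cells with both, 115.7 to 118.7 with the shRNA, 101.8 to 102.6 with IKKβ(EE) and 110.3 to 113.0 in control cells. Of 6 T-cell and NK-cell markers 1 reached the floor (NKG7), and of 2 erythroid markers 1 did (HBB).

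A probe set was tested if it reached log2 5 on at least 2 of the 8 arrays. Of the 18 member probe sets 8 did, and these covered CSF1R, CSF1, CSF2RB, ITGAM, NCF1 and CYBB. The other 10 stayed under log2 5 on every array, among them all probe sets of CSF3R, CEBPA and LYZ. In cells with both, against control cells, limma called 3 of the 8 higher at an adjusted p under 0.05, those of CSF1, CSF2RB and NCF1, and 0 lower. Over all 24481 tested probe sets, 8.43% were called in that comparison, 4.68% higher and 3.75% lower. With the CBFA2T3 shRNA alone 0 of 8 members were called, where 0.690% of all probe sets were, and 1 member had an unadjusted p under 0.05. With IKKβ(EE) alone 0 of 8 were called, where 0.229% of all were, and 3 had an unadjusted p under 0.05. The arrays lay above both control arrays, without overlap, for 5 of the 8 members in cells with both (25.5% of all probe sets), 5 with the shRNA (25.9%) and 4 with IKKβ(EE) (18.9%). With IKKβ(EE) 1 member, CSF1 by 211839_s_at, lay below (23.3% of all). The median change of the 8 against control was 0.42 in cells with both, 0.22 with the shRNA and 0.13 with IKKβ(EE), on the log2 scale. The medians over all tested probe sets were -0.03, 0.01 and -0.03 in the same order. All 3 comparisons use the same control arrays. When the replicate number entered the fit as a block, 4 members were called higher in cells with both (11.8% of all probe sets), with ITGAM added. The blocked fit called 1 with the shRNA, NCF1 (3.98% of all higher), and 1 with IKKβ(EE), ITGAM (2.96% of all higher).

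**Figure D1:**
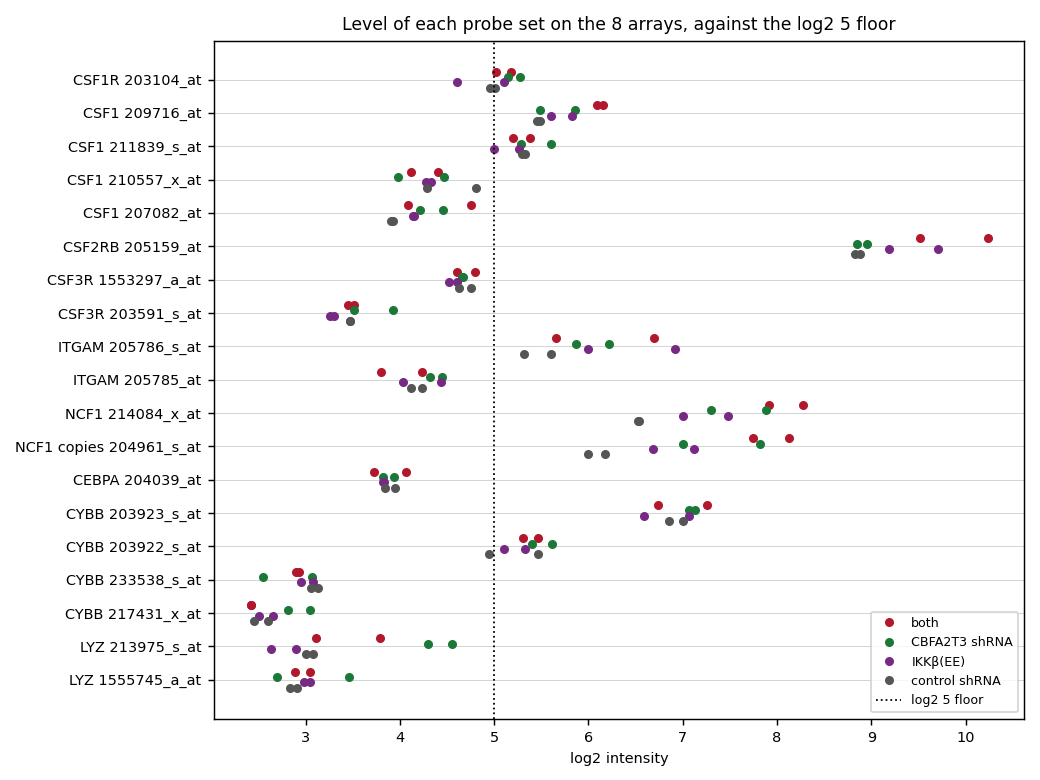
Log2 level of the 18 single-gene member probe sets and the shared NCF1 probe set on each of the 8 arrays, by group. The 10 probe sets that were not tested lie under the log2 5 floor on all arrays, and CSF2RB and NCF1 are highest in cells with both.

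CSF1R lay at the floor in all 4 groups and was not called in any comparison. Probe set 203104_at, the only one for the gene, read 5.18 and 5.02 in cells with both and 5.28 and 5.15 with the CBFA2T3 shRNA. It read 4.61 and 5.11 with IKKβ(EE), against 4.95 and 5.004 in control cells. Replicate 1 with IKKβ(EE) was the lowest array and replicate 1 with the shRNA the highest. The group means were 5.10 ± 0.11 in cells with both, 5.21 ± 0.09 with the shRNA, 4.86 ± 0.35 with IKKβ(EE) and 4.98 ± 0.04 in control cells (SD, n = 2 each). In the order of means, the shRNA group and cells with both overlapped, cells with both lay above control without overlap, and control overlapped with IKKβ(EE). Cells with both exceeded control by 0.12 on the log2 scale, with a 95% interval of -0.28 to 0.53 (adjusted p = 0.701). With the CBFA2T3 shRNA the difference was 0.23, with an interval of -0.17 to 0.64 (adjusted p = 0.571). With IKKβ(EE) it was -0.12, with an interval of -0.53 to 0.28 (adjusted p = 0.830). At these levels the probe set can understate a change, and the upper bound of 0.64 applies to its signal. The arrays with the shRNA did not overlap with control, which in this direction held for 25.9% of all tested probe sets.

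**Figure D2:**
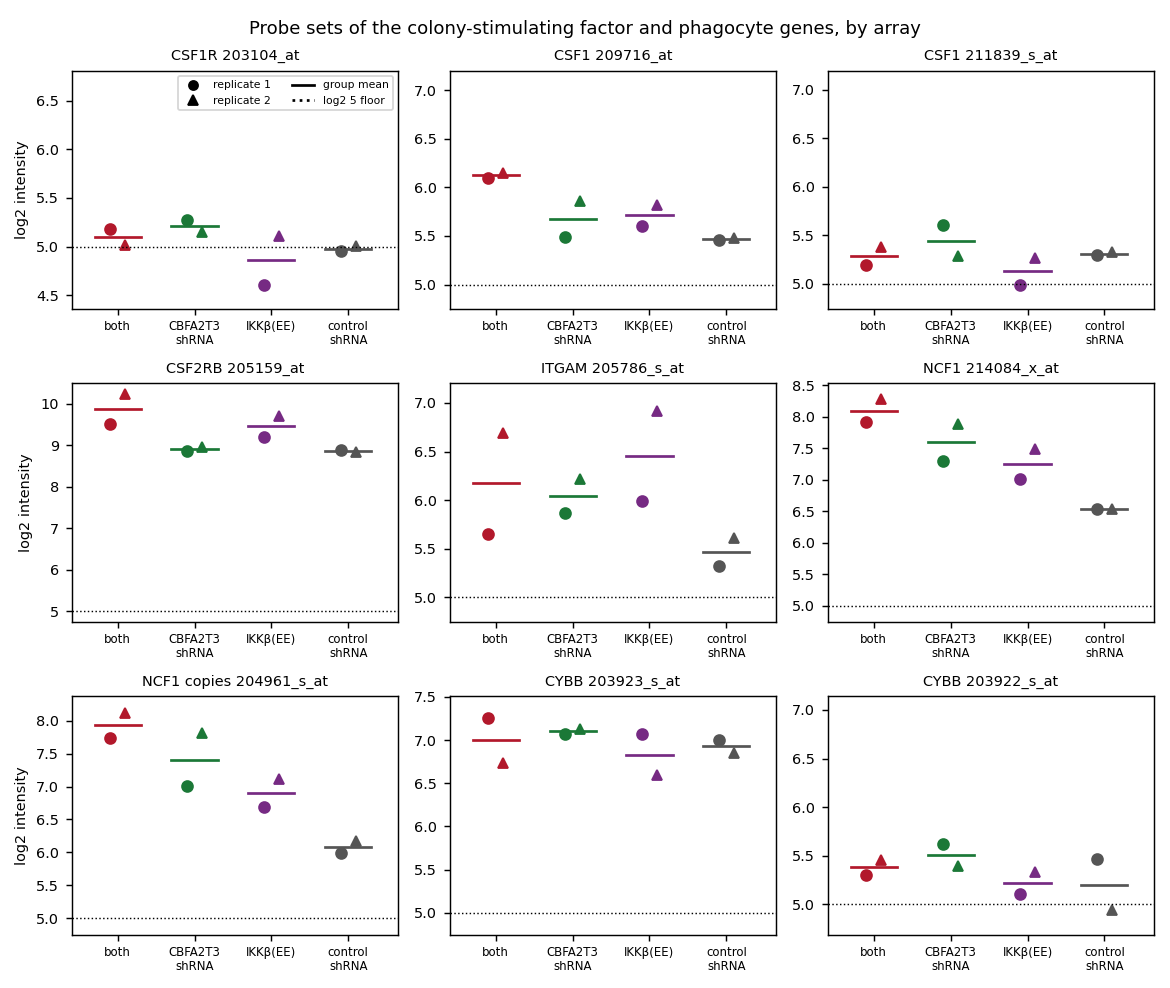
Log2 level of the tested member probe sets on each array, by group, with circles for replicate 1, triangles for replicate 2, bars for the group mean and a dotted line at the log2 5 floor. CSF1R stays between 4.61 and 5.28, while NCF1 lies between 6.53 in control cells and 8.28 in cells with both.

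CSF1, the gene of the main CSF1R ligand, was called higher in cells with both by 1 of its tested probe sets, 209716_at, and not by the other. Probe set 209716_at read 6.09 and 6.15 in cells with both and 5.49 and 5.86 with the shRNA. It read 5.60 and 5.82 with IKKβ(EE), against 5.46 and 5.48 in control cells. The arrays with both lay above all 6 others, and the groups with 1 construct overlapped with each other. The difference from control was 0.65 ± 0.15 (SE), or 1.57-fold, with a 95% interval of 0.30 to 1.01 and an adjusted p of 0.0437. The shRNA alone differed from control by 0.20 (adjusted p = 0.583) and IKKβ(EE) alone by 0.24 (adjusted p = 0.636). The call was lost without control replicate 1 (adjusted p = 0.168), control replicate 2 (0.179), either IKKβ(EE) array (0.0581 and 0.0570), or replicate 1 or 2 with both (0.0619 and 0.199). It was also lost with no floor (0.0561), with array weights (0.0663) and in a fit of the compared groups alone (0.0659). Probe set 211839_s_at read 5.20 and 5.38 in cells with both, 5.60 and 5.29 with the shRNA, 4.99 and 5.27 with IKKβ(EE), and 5.29 and 5.33 in control cells. It showed no such order: cells with both differed from control by -0.02 (adjusted p = 0.949), and its correlation with 209716_at over the 8 arrays was -0.14. The remaining CSF1 probe sets stayed under the floor. Of these, 207082_at read 4.09 and 4.76 in cells with both, 4.45 and 4.22 with the shRNA, 4.14 and 4.15 with IKKβ(EE), and 3.91 and 3.93 in control cells, and correlated with 209716_at at 0.518. The other, 210557_x_at, stayed between 3.98 and 4.81 and correlated with it at -0.141.

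CSF2RB, the signalling chain shared by the receptors for GM-CSF, interleukin 3 and interleukin 5, was higher in cells with both. Probe set 205159_at read 9.52 and 10.23 in cells with both and 8.85 and 8.96 with the CBFA2T3 shRNA. It read 9.19 and 9.71 with IKKβ(EE), against 8.88 and 8.83 in control cells. All 4 arrays with IKKβ(EE), with or without the shRNA, lay above the 4 arrays without it, and the shRNA group overlapped with control. The difference between cells with both and control was 1.02 ± 0.25 (SE), or 2.03-fold, with a 95% interval of 0.43 to 1.61 and an adjusted p of 0.0498. By replicate it was 0.64 and 1.40. IKKβ(EE) alone differed from control by 0.59 (adjusted p = 0.509) and the shRNA alone by 0.05 (adjusted p = 0.952). The call was at the threshold: of the 8 fits that each left out 1 array, only that without replicate 1 with both kept it (adjusted p = 0.0120). The others gave 0.0504 to 0.220, and the change was 1.38 without replicate 1 with both and 0.66 without replicate 2. It was also lost with no floor (0.0550), array weights (0.0550), cyclic loess (0.0528) and the compared groups alone (0.0848). CSF3R, the receptor for G-CSF that drives granulocyte production, stayed under the floor, at 4.52 to 4.79 for 1553297_a_at and 3.25 to 3.93 for 203591_s_at.

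NCF1 encodes p47phox, the cytosolic organiser of the phagocyte NADPH oxidase, and had the largest change of the tested members. Probe set 214084_x_at read 7.92 and 8.28 in cells with both and 7.30 and 7.89 with the CBFA2T3 shRNA. It read 7.01 and 7.48 with IKKβ(EE), against 6.53 and 6.53 in control cells. All 6 arrays with the shRNA, IKKβ(EE) or both lay above the control arrays, and the shRNA and IKKβ(EE) groups overlapped with each other. The difference between cells with both and control was 1.56 ± 0.24 (SE), or 2.96-fold, with a 95% interval of 1.01 to 2.12 and an adjusted p of 0.0146. The shRNA alone differed by 1.06 ± 0.24, or 2.08-fold, which was not called (adjusted p = 0.0940) unless the replicate number was a block (adjusted p = 0.0108). IKKβ(EE) alone differed by 0.71 (adjusted p = 0.403; 0.0503 with the block). The call in cells with both was lost without control replicate 1 (adjusted p = 0.0834), control replicate 2 (0.111) or replicate 2 with both (0.0811), and was kept in the other 5 fits that left out 1 array.

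The probe set shared with NCF1B and NCF1C, 204961_s_at, followed the same order, with a correlation of 0.995 over the 8 arrays. It read 7.74 and 8.12 in cells with both, 7.01 and 7.82 with the shRNA, 6.69 and 7.12 with IKKβ(EE), and 5.996 and 6.17 in control cells. Cells with both exceeded control by 1.85 ± 0.28 (SE), or 3.60-fold (adjusted p = 0.0144), and this call was lost without control replicate 1 (0.0895), control replicate 2 (0.101) or replicate 2 with both (0.0798). The shRNA alone gave 1.33 (adjusted p = 0.0836; 0.00712 with the block) and IKKβ(EE) alone 0.82 (adjusted p = 0.410; 0.0362 with the block). Because the copies are nearly identical, the share of NCF1 itself in either signal is uncertain. The summed level of the 8 monocyte and granulocyte markers was below control in cells with both and with IKKβ(EE), and above control with the shRNA.

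CYBB, the gene of the membrane-bound catalytic subunit gp91phox, was not called in any comparison. Probe set 203923_s_at read 7.26 and 6.74 in cells with both, 7.07 and 7.13 with the shRNA, 7.07 and 6.59 with IKKβ(EE), and 7.002 and 6.85 in control cells. Cells with both differed from control by 0.07 (adjusted p = 0.869), the shRNA group by 0.17 and the IKKβ(EE) group by -0.10, and neighbouring groups overlapped. Probe set 203922_s_at read 5.31 and 5.46 in cells with both, 5.62 and 5.399 with the shRNA, 5.10 and 5.33 with IKKβ(EE), and 5.47 and 4.94 in control cells. Its difference in cells with both was 0.18 (adjusted p = 0.599). The other CYBB probe sets, 233538_s_at and 217431_x_at, stayed between 2.42 and 3.13. Of 9 listed symbols of oxidase partners, NCF1B and NCF1C are read by the shared probe set 204961_s_at, called in cells with both (adjusted p = 0.0144). Another 5 had a probe set of their own, among them CYBA (p22phox) and NCF4 (p40phox). Of these 5, 0 were called in any comparison with control. The shares of all probe sets called were 8.43% in cells with both, 0.690% with the shRNA and 0.229% with IKKβ(EE). By the probe set of the highest mean for each gene, CYBA had the largest change of these 5, 0.28 with the shRNA (adjusted p = 0.373). NCF4 had the smallest, -0.17 with IKKβ(EE) (adjusted p = 0.679). A dimmer probe set of RAC1, also among the 5, changed by 0.43 in cells with both (1567458_s_at, adjusted p = 0.109, blocked 0.0435). The blocked fit called 11.8% of all probe sets higher there.

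ITGAM encodes CD11b, the alpha chain of the integrin Mac-1 on monocytes and granulocytes. Probe set 205786_s_at read 5.66 and 6.70 in cells with both and 5.87 and 6.21 with the CBFA2T3 shRNA. It read 5.99 and 6.92 with IKKβ(EE), against 5.32 and 5.61 in control cells. Replicate 2 was above replicate 1 in all 4 groups, by 1.04 in cells with both, 0.35 with the shRNA, 0.93 with IKKβ(EE) and 0.29 in control cells. All 6 other arrays lay above both control arrays, and the 3 groups other than control overlapped with each other. The differences from control were 0.71 in cells with both (adjusted p = 0.286), 0.58 with the shRNA (0.527) and 0.99 with IKKβ(EE) (0.484). With the replicate number as a block, the adjusted p was 0.0388 in cells with both, 0.122 with the shRNA and 0.0438 with IKKβ(EE). The other ITGAM probe set, 205785_at, stayed under the floor at 3.80 to 4.45. Its correlation with 205786_s_at over the 8 arrays was -0.494.

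ITGB2, the gene of CD18, which pairs with CD11b in Mac-1, was called in cells with both. Its probe set 202803_s_at read 7.90 and 9.97 in cells with both and 6.69 and 7.17 with the shRNA. It read 7.08 and 8.90 with IKKβ(EE), against 5.35 and 5.20 in control cells. The 6 arrays of the other groups lay above both control arrays, and those with IKKβ(EE) differed most between replicates. Cells with both exceeded control by 3.66 ± 0.73 (SE; adjusted p = 0.0298). The shRNA alone gave 1.65 (adjusted p = 0.321) and IKKβ(EE) alone 2.71 (adjusted p = 0.266; 0.0342 with the block). The call was lost without either control array, either shRNA array or replicate 2 with both, with adjusted p between 0.0517 and 0.156. ICAM1, a ligand of Mac-1 and a textbook NF-κB target, exceeded control by 3.62 in cells with both (adjusted p = 0.00657) and by 3.35 with IKKβ(EE) (adjusted p = 0.0376). In cells with both it was lost without control replicate 1 (0.0598) or 2 (0.0752). With IKKβ(EE) it was lost without any of the control, shRNA or IKKβ(EE) arrays, at 0.0812 to 0.341. Of the 7 leukocyte integrin and ligand genes listed, 4 were tested, and 2 were called higher in cells with both, where 8.43% of all probe sets were called. The others, FERMT3 and ICAM2, differed from control by 0.34 (adjusted p = 0.122) and -0.02 (adjusted p = 0.957). With the shRNA the blocked fit called ICAM2, named after its values were seen (0.54, adjusted p = 0.233, blocked 0.0266), beside 3.98% of all probe sets called higher. The median of the 4, 1.98, lies between these pairs and near no gene, against -0.02 over all tested genes.

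**Figure D3:**
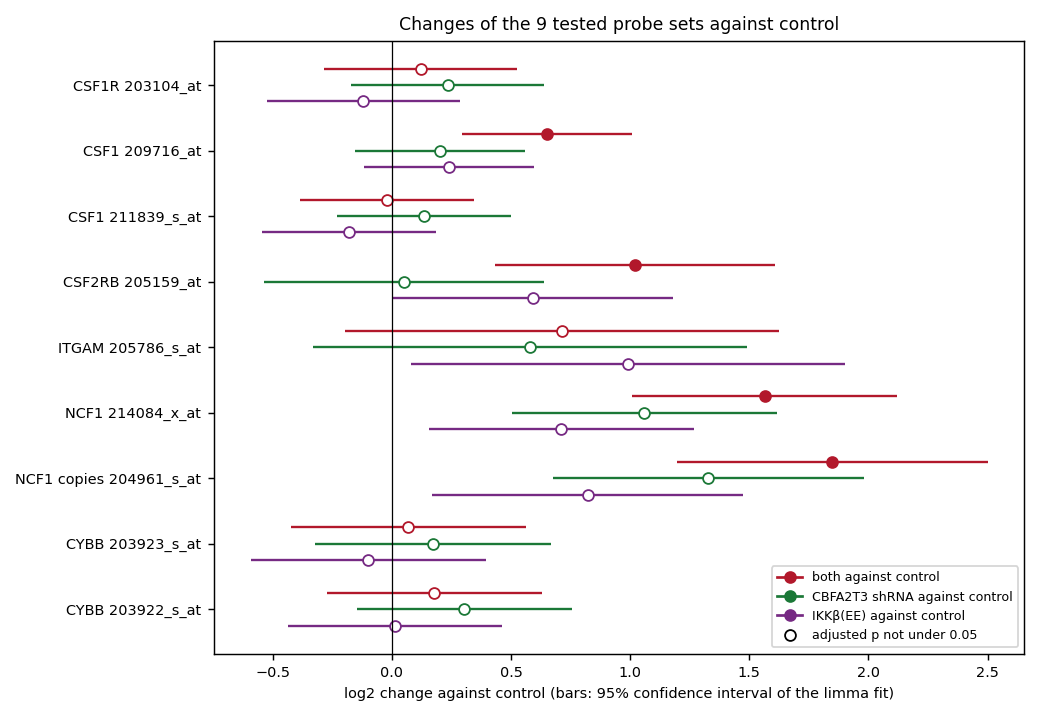
Log2 change against control of each tested member probe set, with its 95% interval, for cells with both constructs, the CBFA2T3 shRNA alone and IKKβ(EE) alone. The intervals of NCF1, CSF2RB and 1 CSF1 probe set in cells with both lie above 0, and those of CSF1R include 0 in all 3 comparisons.

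LYZ and CEBPA were under the floor on all arrays. LYZ encodes lysozyme, a secreted enzyme abundant in monocytes and neutrophils. Its probe set 213975_s_at read 3.79 and 3.11 in cells with both, 4.29 and 4.55 with the CBFA2T3 shRNA, 2.63 and 2.89 with IKKβ(EE), and 3.0003 and 3.08 in control cells. The shRNA arrays were the highest, and both were still under log2 5. When all 54613 non-control probe sets were tested with no floor, this probe set passed the test with the shRNA (adjusted p = 0.0467), where 0.286% of all did, and the other LYZ probe set did not (adjusted p = 0.809). Since both LYZ probe sets lay under the floor on every array, no size of change is given for LYZ. The summed level of the monocyte and granulocyte markers was also highest in the shRNA group, but each marker averaged under log2 5. CD14, S100A8, SPI1 and TYROBP averaged higher with the shRNA than in control cells, and ELANE, FCGR1A, MPO and S100A9 lower. SPI1 averaged 4.79 against 4.39, and ELANE 3.62 against 3.92. The part of these markers in the LYZ result was not tested. The other LYZ probe set, 1555745_a_at, stayed between 2.69 and 3.46. CEBPA, which drives granulocyte and monocyte commitment, read 3.73 to 4.06 (204039_at).

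The groups with both constructs were also set against those with 1. Against IKKβ(EE) alone, 0 of the 8 members were called (0.143% of all probe sets), and 2 had an unadjusted p under 0.05. Against the CBFA2T3 shRNA alone 0 were called (0.862% of all), and 2 had an unadjusted p under 0.05. NCF1 was 0.85 higher in cells with both than with IKKβ(EE) alone (adjusted p = 0.175), and the blocked fit called it (0.0321), as it did 2.18% of all probe sets. CSF2RB was 0.97 higher in cells with both than with the shRNA alone (adjusted p = 0.161), and the blocked fit called it (0.0318), as it did 3.64% of all. Unblocked fits that left out 1 array gave CSF2RB a difference of 0.61 to 1.33 there, with adjusted p from 0.0307 to 0.598. It was called in 1 of those 8, without replicate 1 with both, where the remaining array is assumed to vary like the other groups. CSF1 differed by 0.41 from IKKβ(EE) alone (adjusted p = 0.273) and by 0.45 from the shRNA alone (adjusted p = 0.247). The interaction compares the change with both constructs to the 2 single changes added together. It was called for 0 of the 8 members by limma, with 0 at an unadjusted p under 0.05 and 0.0123% of all probe sets called. It was 0.01 for CSF1R (95% interval -0.57 to 0.58), 0.21 for CSF1 (209716_at), 0.38 for CSF2RB, -0.21 for NCF1 and -0.86 for ITGAM.

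Genes of related function were taken as lists, with the probe set of the highest mean for each gene. Among the type III receptor kinases and their ligands, the family of CSF1R, 6 of 9 listed genes were tested. In cells with both, FLT3 and KIT, receptors of early progenitors, were lower by limma, and PDGFA, a ligand gene, was higher. FLT3 averaged 7.62 in cells with both, against 9.02 in control cells, a change of -1.41 ± 0.24 (SE; adjusted p = 0.0192). KIT averaged 5.75 in cells with both, against 6.82 in control cells, a change of -1.07 ± 0.19 (SE; adjusted p = 0.0213). PDGFA averaged 8.84 in cells with both, against 6.96 in control cells, a change of 1.88 ± 0.39 (SE; adjusted p = 0.0315). With IKKβ(EE) alone PDGFA differed from control by 2.44 (adjusted p = 0.0810; 0.00295 with the block). The list's median change in cells with both was -0.20, against -0.02 over all tested genes, and 0 of the 6 were called with either construct alone. The list's 3 calls stand beside 8.43% of all probe sets called in that comparison. With the replicate block 5 of the 6 were called, 2 higher and 3 lower, beside 23.7% of all. The added genes, named after their values were seen, were PDGFRB (0.85; adjusted p = 0.0503, blocked 0.0216) and IL34 (-0.52; adjusted p = 0.0757, blocked 0.0305), which also encodes a CSF1R ligand. The lower summed B-cell precursor markers in cells with both accompany the lower FLT3 and KIT, and their part in those changes was not tested.

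In the GM-CSF, interleukin 3 and G-CSF axis, the pathway of CSF2RB and CSF3R, 6 of 12 listed genes were tested and 1 was called in cells with both, where 8.43% of all probe sets were. STAT5A, a transcription factor downstream of these receptors, averaged 9.27 in cells with both, against 7.42 in control cells, a change of 1.85 ± 0.33 (SE; adjusted p = 0.0223). With IKKβ(EE) alone it differed from control by 1.25 (adjusted p = 0.264; 0.0190 with the block). The blocked fit called 3 of the 6 in cells with both, where it called 23.7% of all probe sets. It added JAK2 (0.67, adjusted p = 0.104, blocked 0.0339) and STAT5B (-0.43, adjusted p = 0.165, blocked 0.0417), which are named after their values were seen. The median change of the 6 in cells with both was 0.04. Of 14 listed myeloid transcription factors 7 were tested and 1 was called in cells with both, again beside 8.43% of all. IRF8, a factor of monocytes and of B cells, averaged 6.94 in cells with both, against 5.35 in control cells, a change of 1.59 ± 0.38 (SE; adjusted p = 0.0457). In cells with both the blocked fit called 1 of the 7 higher and 1 lower, beside 23.7% of all probe sets called. It added CBFB there (-0.53, adjusted p = 0.0511, blocked 0.0198). With the shRNA it called CEBPB (0.51, adjusted p = 0.368, blocked 0.0353), beside 3.98% of all probe sets called higher. CBFB and CEBPB are likewise named afterwards. The median of the 7 in cells with both was 0.15. SPI1, the gene of PU.1, was not tested and read 4.61 and 5.02 in cells with both, 4.65 and 4.93 with the shRNA, 4.38 and 4.58 with IKKβ(EE), and 4.27 and 4.51 in control cells.

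Of 28 listed monocyte and granulocyte genes, 25 had a probe set of their own and 3 were tested. Against control, 0 of the 3 were called in any of the 3 comparisons. Over all tested probe sets, 8.43% were called in cells with both, 0.690% with the shRNA and 0.229% with IKKβ(EE). The largest and the smallest change both belonged to MSR1, a macrophage scavenger receptor. It read 7.07 and 7.50 with the CBFA2T3 shRNA, against 6.29 and 6.48 in control cells, a difference of 0.90 (adjusted p = 0.0815; 0.0309 with the block). With IKKβ(EE) it differed by -0.21 (adjusted p = 0.732). The blocked call of MSR1 with the shRNA stands beside 3.98% of all probe sets called higher by that fit. Among the called genes of these lists, FLT3, KIT, PDGFA, STAT5A and IRF8 lost the call in cells with both when control replicate 1 (adjusted p = 0.0634 to 0.150), control replicate 2 (0.126 to 0.214) or replicate 2 with both (0.0709 to 0.231) was left out. PDGFA lost it also without either shRNA array (0.0557 and 0.0553), and IRF8 without either shRNA array (0.0555 and 0.0550) or either IKKβ(EE) array (0.0676 and 0.0662). In a fit of the compared groups alone, STAT5A (0.0523), FLT3 (0.0531), PDGFA (0.0596) and IRF8 (0.0802) were not called, and IRF8 was not called with array weights (0.0624).

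**Figure D4:**
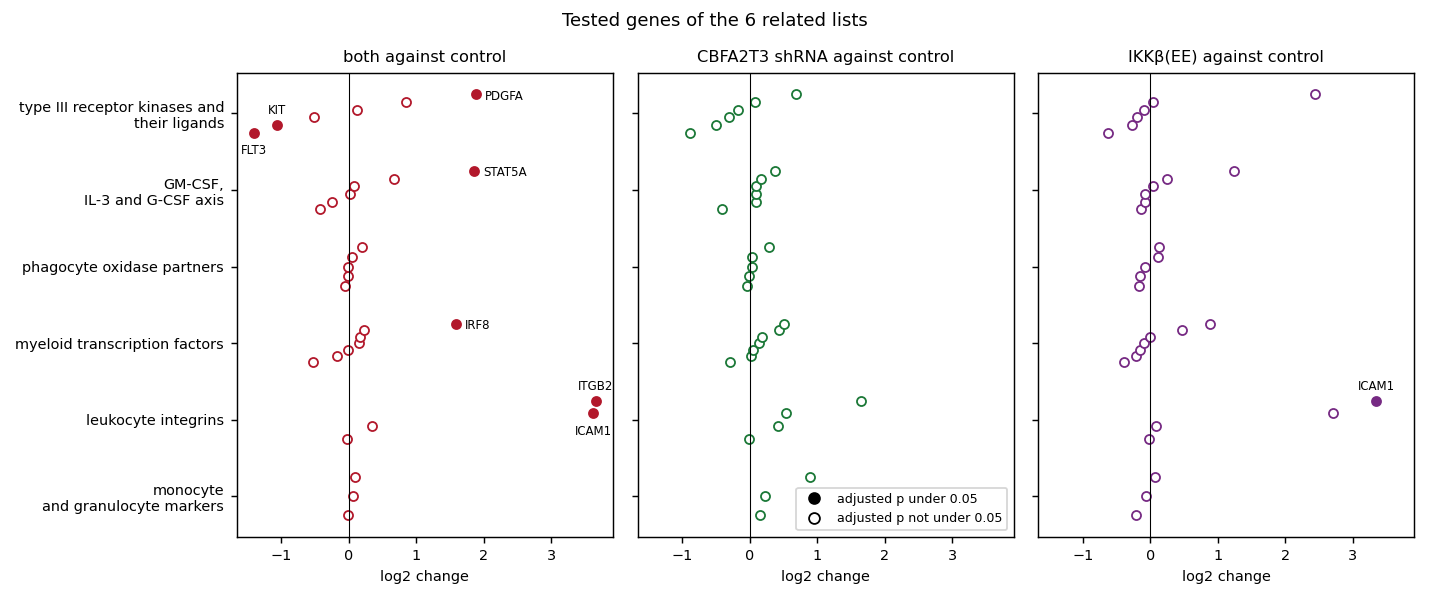
Log2 change against control of the tested genes of the 6 related lists, with 1 probe set per gene, filled where the adjusted p was under 0.05. In cells with both, ICAM1 and ITGB2 lie near 3.6, PDGFA, STAT5A and IRF8 between 1.59 and 1.88, and KIT and FLT3 below 0.

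The genes with the pattern most like each member's were found by Pearson correlation over the 8 arrays, among 20744 or 20745 tested probe sets with a single gene. For CSF1R they were SLC66A3 (0.976), MINK1 (0.965) and PAPOLA-DT (0.943), and SLC66A3 also averaged close to the floor, 5.15 in cells with both and 5.02 in control cells. For CSF1 (209716_at) they were GPATCH2, IFI44 and MTERF4, each at 0.984. For CSF2RB they were IGLC1 (0.992), SNX11 (0.991) and RAPGEF1 (0.987). For NCF1 they were WIPF1 (0.994), GBP3 (0.991) and ELK4 (0.986). Other dim genes were among them: GPATCH2 averaged 5.29 in cells with both and under log2 5 in every other group. IGLC1 averaged 4.45 in control cells and 4.70 with the shRNA, and PAPOLA-DT 4.77 in control cells and 4.70 with IKKβ(EE). These correlations follow the 4 groups as much as the single arrays, and each value is the highest of all that were compared.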

How the data were processed

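Total RNA of Reh cells was hybridized to 8 Affymetrix U133 Plus 2.0 arrays. The authors deposited log2 intensities of probe sets, made with RMA, per the submitters' processing notes. RMA subtracts background, quantile normalizes and combines the probes of each set, which removes a shift common to most transcripts and compresses changes of dim probe sets. Its version is not given in the sources used here. Base 2 was inferred because values of up to 14.6 exceed what a 16-bit scanner allows in natural logs (11.1).

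Of 54675 probe sets, 62 controls and 30132 dim ones (under log2 5 on more than 6 of the 8 arrays) were left out. The platform annotation assigned 41097 to 1 symbol, 1801 to several and 11777 to no gene. From each related list the text names every gene called in 1 of the 3 comparisons with control, or, with none called, those with the largest and smallest change. The members and lists were chosen with earlier results of these data known.

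The other 24481 probe sets were fitted with limma 3.58.1 (R 4.3.3, statmod 1.5.0), using a mean for each group (4 residual and 3.54 prior degrees of freedom) and two-sided tests. P-values were adjusted by Benjamini-Hochberg over all tested probe sets, separately for the 6 comparisons. The fit was also run on simulated data with independent noise on each array. That run did not cover replicate differences that correlate between groups. The number of arrays limits the precision: a difference had a median SE of 0.15, and 0.333 is the smallest p of an exact permutation test at this size. The labels call the replicates biological without naming separate cultures, so the p-values measure the spread between these arrays. Replicate differences correlated between groups at 0.34 to 0.58 in each of 6 pairings, so equal numbers were taken to pair arrays. That pairing rests on the values, since the labels name no shared batch.

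Alternatives changed the floor (none, or log2 6), the moderation (trend and robust), the weighting of arrays, the normalization (cyclic loess, or equal medians), the probe sets (1 per gene) and the arrays in the fit (compared groups alone, or 1 array left out), or added the replicate block. The same alternatives for called genes of the related lists were added after seeing the data. RefSeq promoter windows (GRCh38.p14) were searched for motifs on both strands.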

Additional observations from a re-analysis of the deposited data

Results flagged for a closer look

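The effect of the CBFA2T3 shRNA on ITGAM (205786_s_at) had opposite signs with and without IKKβ(EE). With IKKβ(EE) it was -0.33 and -0.22 in replicates 1 and 2, and without IKKβ(EE) it was 0.55 and 0.61, on the log2 scale. These effects subtract arrays with equal replicate numbers, and the labels do not state that such arrays are paired. Unpaired, the arrays with both (5.66 and 6.70) and those with IKKβ(EE) alone (5.99 and 6.92) overlapped. Paired this way, every replicate moved one way in one setting and the other way in the other, which is why the result stands here. That rule was applied to each tested member probe set and to both constructs, and how often all probe sets meet it was not counted. The difference between the effects was -0.86 ± 0.55 (SE), and limma's test of it did not pass (adjusted p = 0.9998, or 0.754 with the replicate block). With 1 array left out the difference ran from -1.38 to -0.34. The mean effect with IKKβ(EE), -0.28, turned to 0.18 without IKKβ(EE) replicate 2 and to 0.24 without replicate 1 of the cells with both.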

How the results depend on the processing

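The count of called members in cells with both against control was 3. It was 1 (NCF1) with no floor, with array weights and in a fit of the compared groups alone, 2 with cyclic loess, and 0 to 2 when 1 array was left out. It stayed at 3 with robust moderation with a trend, a log2 6 floor, equal array medians and 1 probe set per gene. With the CBFA2T3 shRNA the count of 0 became 1 with no floor (LYZ). The replicate block follows a pairing that was taken from the values and is not in the labels. It gave 1 with the shRNA (NCF1), 1 with IKKβ(EE) (ITGAM) and 4 for both against control. It also gave 1 for both against IKKβ(EE) (NCF1) and 1 for both against the shRNA (CSF2RB). With 1 array left out, both against the shRNA gave 0 to 1, and the shRNA, IKKβ(EE), both against IKKβ(EE) and the interaction gave 0. Fewer residual degrees of freedom come with fewer arrays. Leaving out an array also moved estimates, such as that of CSF2RB in cells with both against control, which ran from 0.66 to 1.38. The causes of the changed counts were not tested.

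Some of the uncalled changes given in the report reversed. CSF1 (211839_s_at) in cells with both was 0.0163 with cyclic loess. With 1 array left out it ranged from -0.115 to 0.0722 in cells with both and from -0.0218 to 0.291 with the shRNA. CSF1R ranged from -0.369 to 0.129 with IKKβ(EE), from -0.00806 to 0.490 for both against IKKβ(EE) and from -0.242 to 0.256 for the interaction. CSF2RB with the shRNA ranged from -0.00337 to 0.103. CYBB 203922_s_at ranged from -0.0856 to 0.443 in cells with both and from -0.252 to 0.276 with IKKβ(EE), and 203923_s_at from -0.189 to 0.327 in cells with both and from -0.335 to 0.137 with IKKβ(EE). ITGAM ranged from -0.798 to 0.241 for both against IKKβ(EE) and from -0.384 to 0.655 for both against the shRNA. The interaction of NCF1 ranged from -0.500 to 0.0888, and that of the shared NCF1 probe set from -0.706 to 0.103.

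Signal limits these results: CSF1R was under log2 5 on 2 of its 8 arrays, where a change can be understated, and CSF3R, CEBPA and LYZ were under it on all 8.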
